A study of Homo sapiens with 4 samples.

Results

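The genes of the translation initiation factors were examined after knockdown of STAU1 in SAS, a line of human squamous carcinoma of the tongue. STAU1 is a double-stranded RNA-binding protein that acts on mRNA decay and translation. Members were all protein-coding genes of the deposited count table whose symbol starts with EIF and a digit. The 4 eIF2 kinases (EIF2AK) and 87 pseudogenes or non-coding genes among the 143 EIF symbols were left out. This gave 52 of the 67008 rows of the table, of which 46 passed the filter on low counts, beside 14303 rows of any kind that passed it. Control cells (Ctrl) carried a short hairpin RNA against luciferase, and shSTAU1 cells carried one against STAU1. Each group had 2 libraries, both groups were made by viral infection of cells given as wild type, and a single hairpin was used, so that its other targets cannot be told apart from STAU1. The library labels also name a mouse fibroblast line, C3H 10T1/2, although they give the organism as human.

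Initiation begins when eIF1, eIF1A, eIF3 and eIF5 join the small ribosomal subunit with eIF2, which brings the initiator tRNA. The subunit is loaded on mRNA through eIF4F, made of the cap-binding eIF4E, the scaffold eIF4G and the helicase eIF4A. After the start codon is found, eIF5 and eIF5B promote release of eIF2 and joining of the large subunit, and eIF2B recharges eIF2 with GTP. Many mRNAs of the translation machinery begin with a cytosine and a run of pyrimidines, the 5' terminal oligopyrimidine (TOP) tract, through which the kinase mTOR controls their translation.

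A TOP-like start, taken here as C at the first transcribed base followed by 4 bases that are each C or T on the gene's strand, was searched at the annotated starts of RefSeq (GRCh38.p14). Of the 44 members with an annotated start, 10 held one (22.7%), against 5.14% of 27305 genes and 7.30% of the 9968 tested genes with an annotated start. The starts of 7 members are printed because they show the tract in 3 factor complexes, with 10 bases before the start and 20 from it. Capitals mark the pyrimidine run counted from the annotated start, and pyrimidines before the start are left in lower case.
EIF3F: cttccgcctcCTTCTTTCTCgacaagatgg
EIF3M: gcccagttccCTTTTCCggtcggcgtggtc
EIF3D: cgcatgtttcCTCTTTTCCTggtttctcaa
EIF4A2: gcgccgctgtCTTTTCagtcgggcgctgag
EIF4B: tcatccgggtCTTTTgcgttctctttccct
EIF2S3: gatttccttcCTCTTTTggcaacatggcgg
EIF2S3B: gactttcttcCTCTTTTggcaacatggcgg
These windows are chr11:7987327-7987356 (plus strand) for EIF3F, chr11:32583821-32583850 (plus) for EIF3M, chr22:36529147-36529176 (minus) for EIF3D, chr3:186783567-186783596 (plus) for EIF4A2, chr12:53006446-53006475 (plus) for EIF4B, chrX:24054946-24054975 (plus) for EIF2S3 and chr12:10505880-10505909 (plus) for EIF2S3B. Counted from the annotated start, EIF2S3 and EIF2S3B carry the same run of pyrimidines. The other members with such a start were EIF2A, EIF2D and EIF3K. The match describes these letters at the annotated start and does not show which start was used in SAS cells.

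The count totals ranged from 32206655 to 36301574 per library. Values are given as CPM, the counts scaled to a common library total with TMM factors, in the order of Ctrl replicates 1 and 2 and shSTAU1 replicates 1 and 2. STAU1 itself was at 249 and 251 CPM in Ctrl and at 41.6 and 41.5 CPM in shSTAU1. Its log2 fold change was -2.59 (SE 0.13, edgeR quasi-likelihood test, adjusted p = 0.00103). All 8 squamous epithelial markers were detected, with KRT5 at 3236 to 5488 CPM. Of the 7 fibroblast markers, THY1, DCN and LUM were at 0 to 0.0297 CPM and COL1A1 was at 6.25 to 20.2 CPM. The summed squamous markers were at 7444 and 7044 CPM in Ctrl and 11229 and 8591 CPM in shSTAU1, and the summed fibroblast markers at 17.9 and 22.8 CPM in Ctrl and 11.1 and 10.2 CPM in shSTAU1. Of these lists KRT5 (log2 0.65, edgeR adjusted p = 0.0408) and COL1A1 (log2 -1.35, adjusted p = 0.036) passed the threshold, against 2.60% of all tested genes. Without Ctrl replicate 1 the log2 fold changes were 0.61 for KRT5 and -1.53 for COL1A1. Without Ctrl replicate 2 they were 0.69 and -1.15. Of the 8 squamous markers, 7 had a log2 fold change above 0 and 1, CDH1 at -0.29, was below it. Their median was 0.29, with EPCAM at 0.028 and KRT14, which did not overlap between groups, at 0.89 (edgeR adjusted p = 0.112). Of the 4 tested fibroblast markers, 3 were below 0 and 1 above it. The latter was COL1A2, which did not overlap between groups, at 1.01 on the log2 scale (edgeR adjusted p = 0.185). The part of such differences in the results on initiation factors was not tested.

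Most initiation factor mRNAs were somewhat higher in shSTAU1 than in Ctrl cells, but 1 of the 46 tested members, the eIF3 subunit gene EIF3E, passed the threshold (adjusted p under 0.05), against 2.60% of all tested genes. The log2 fold change was above 0 for 38 members and below 0 for 8, and its median was 0.28 (a 1.22-fold difference), while the median of all tested genes was 0.0059 and 50.4% of them were above 0. Both shSTAU1 libraries were above both Ctrl libraries for 26 members, against 28.5% of all tested genes, and below them for 3, against 28.0%. An unadjusted p under 0.05 with a higher level in shSTAU1 was found for 15 members, against 12.9% of all tested genes, and with a lower level for 0, against 11.6%. In bulk RNA, more RNA per cell and more cells that hold it cannot be told apart.

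The members took 1.17% and 1.21% of all counts in the Ctrl libraries, and 1.27% and 1.43% in shSTAU1 replicates 1 and 2. Replicate 2 of shSTAU1 thus stood farther from Ctrl than replicate 1. Without it the members' median was 0.13 with 32 of 46 above 0, and without replicate 1 it was 0.38 with 40 above 0. The number past the threshold was 5 (4 higher) without shSTAU1 replicate 2, when 14.5% of all genes passed, 17 without shSTAU1 replicate 1, when 18.5% passed, and 0 without Ctrl replicate 1 or without Ctrl replicate 2. Among all genes, edgeR then called 0 and 64, and an unadjusted p under 0.05 was found for 2 and 6 members.

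**Figure D1:**
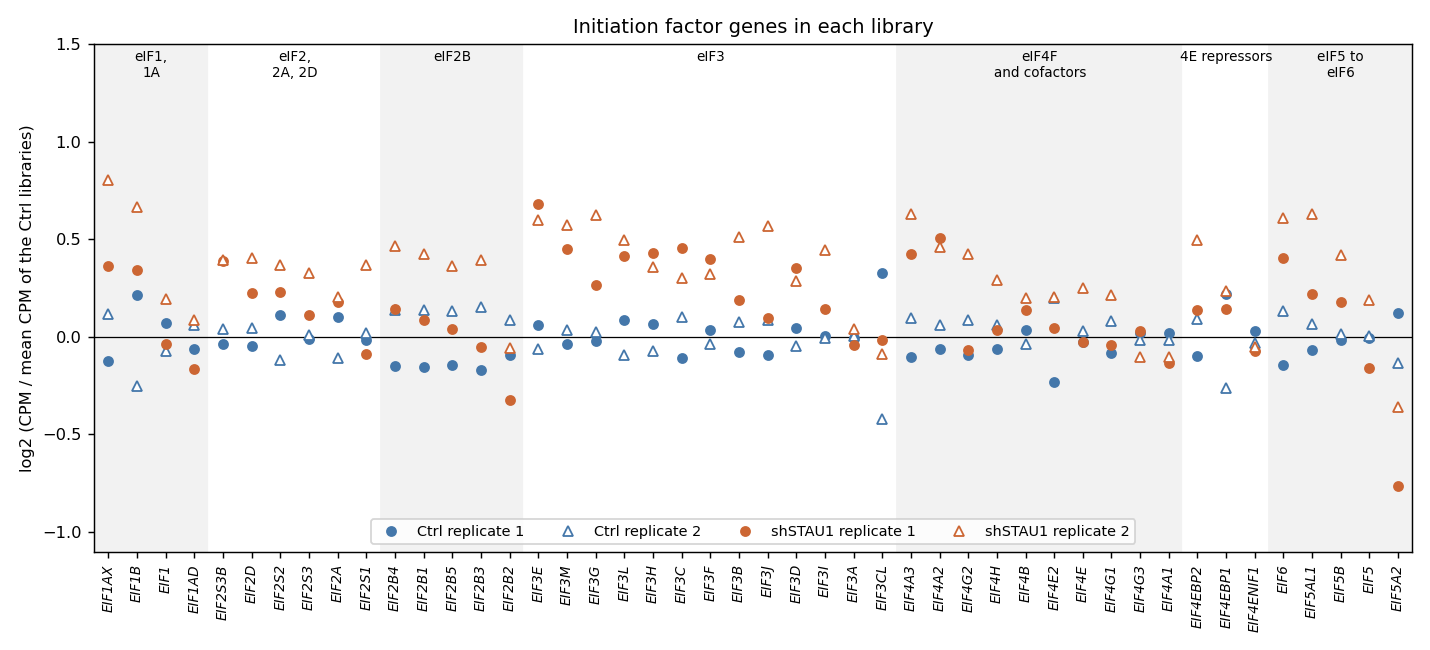
Level of each of the 46 tested members in each library, as log2 of its CPM over the mean CPM of the Ctrl libraries, grouped by factor complex (filled circles, replicate 1; open triangles, replicate 2). In the eIF3 group both shSTAU1 points lie above both Ctrl points for 11 of 13 genes. In the eIF2B group this is so for 1 of 5, and among all tested genes for 28.5%.

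The eIF3 complex, the large scaffold that holds the small subunit and mRNA together, had a median of 0.36 over 13 tested genes. This was the highest of the complexes, except after the length and GC correction, where it was 0.34 against 0.36 for the group of eIF5 to eIF6. Its log2 fold change was above 0 for 11 of 13, against 50.4% of all tested genes. The libraries of the groups did not overlap for the same number, all higher in shSTAU1, against 28.5% of all tested genes. An unadjusted edgeR p under 0.05 was found for 9, all higher, against 12.9% of all tested genes. Left out 1 at a time, the libraries gave a median from 0.34 to 0.45. No test of the difference between complexes was made.

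EIF3E (ENSG00000104408, chr8:108201216-108435333, minus strand) encodes a subunit that also helps to recruit eIF4F. It was at 741 and 679 CPM in Ctrl and at 1137 and 1077 CPM in shSTAU1, from 22245 to 39579 reads per library, and 9.86% of the 75-base words of its transcripts also occur in transcripts of other genes. The groups did not overlap, with means of 710 ± 43.7 and 1107 ± 42.2 CPM (SD, n = 2 each). EIF3E rose by 1.56-fold (log2 0.64, SE 0.12, 95% interval 0.36 to 0.92, edgeR adjusted p = 0.0424). The rise lay between 0.58 and 0.70 whichever library was left out. Such fits leave 1 library in a group, so that only the fold change is given here. The edgeR adjusted p of EIF3E missed the threshold under other settings with all libraries. It was 0.0528 with library sizes in place of TMM, 0.0524 after a correction for length and GC content and 0.0994 without the low-count filter.

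EIF3M, chosen after its values were seen, encodes a subunit of the same outer arm of the complex as EIF3F and EIF3H. It was at 126 and 133 CPM in Ctrl and at 177 and 192 CPM in shSTAU1, a log2 fold change of 0.51 (SE 0.12) with an adjusted p of 0.0685. Its groups did not overlap, yet it did not pass the threshold. EIF3A, which encodes the largest subunit and was also chosen after its values were seen, differed from this pattern. It was at 1216 and 1223 CPM in Ctrl and at 1185 and 1252 CPM in shSTAU1. The groups overlapped, and the 95% interval of its log2 fold change ran from -0.27 to 0.27. The other subunit genes apart from EIF3C, its copy and EIF3K (EIF3B, EIF3D, EIF3F, EIF3G, EIF3H, EIF3I, EIF3J and EIF3L) had log2 fold changes from 0.30 to 0.46 and adjusted p from 0.0916 to 0.296.

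The eIF3 mRNAs were counted at unlike levels although their proteins form one complex. Per kilobase of annotated coding exons, EIF3E had the highest Ctrl mean, 466 CPM, followed by EIF3A at 294, EIF3H at 266, EIF3B at 180, EIF3I at 126, EIF3D at 118, EIF3M at 112, EIF3F at 73.7, EIF3L at 57.4, EIF3G at 48.7, EIF3J at 41.8 and EIF3C at 24.0 CPM per kb. No neighbours in this order overlapped in their Ctrl libraries, although the lowest EIF3D and the highest EIF3M library nearly met. Capture probes differ in efficiency between genes, so that levels of different genes are less certain than differences of 1 gene between libraries. Of the words of EIF3L transcripts, 42.5% also occur in transcripts of other genes, so that its place in this order is uncertain.

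**Figure D2:**
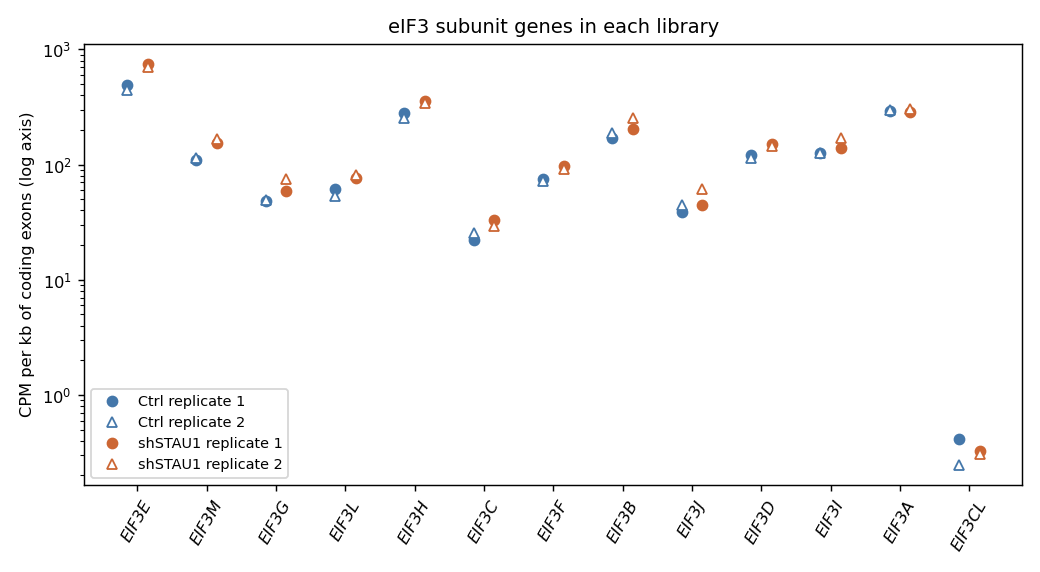
CPM per kilobase of annotated coding exons (log axis) of the 13 eIF3 genes that were tested, in each library. EIF3E lies highest and above its Ctrl libraries in both shSTAU1 libraries, EIF3A is at the same level in both groups, and EIF3CL, a near copy of EIF3C, lies far below the others.

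The eIF2 group held EIF2S1, EIF2S2, EIF2S3 and its copy EIF2S3B, and also EIF2A and EIF2D, which do not encode subunits of eIF2. In this group 6 of 6 genes had a log2 fold change above 0, with a median of 0.26. For 5 of 6 both shSTAU1 libraries were above both Ctrl libraries, against 28.5% of all tested genes. None passed the threshold with edgeR. An unadjusted p under 0.05 was found for 1, higher in shSTAU1, against 12.9% of all tested genes. That gene was EIF2S3B, a second copy of the gamma subunit gene, at 58.3 and 61.5 CPM in Ctrl and at 78.2 and 78.7 CPM in shSTAU1 (log2 0.39, SE 0.13, adjusted p = 0.123). The X-linked EIF2S3, from which most gamma subunit mRNA comes, was at 1316 and 1332 CPM in Ctrl and 1432 and 1658 CPM in shSTAU1 (log2 0.22, SE 0.13). The genes share 17.9% of the 75-base words of EIF2S3B, so that their reads can be divided between them. The smallest fold change was that of EIF2S1, the alpha subunit whose phosphorylation halts initiation, with a log2 value of 0.16 (SE 0.17), and its libraries overlapped.

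The 5 genes of eIF2B, the exchange factor of eIF2, had a median of 0.21. The median was 0.030 without shSTAU1 replicate 2, 0.079 without Ctrl replicate 1, 0.36 without Ctrl replicate 2 and 0.40 without shSTAU1 replicate 1. No gene passed the edgeR threshold or had an unadjusted p under 0.05. EIF2B4 had the highest log2 fold change, 0.31 (SE 0.16), with 112 and 137 CPM in Ctrl and 137 and 172 CPM in shSTAU1, and it ranged from 0.13 to 0.48 with each library left out. EIF2B2 was the exception in sign, at 87.8 and 99.4 CPM in Ctrl and 74.8 and 90.0 CPM in shSTAU1 (log2 -0.18, SE 0.15). Its groups overlapped, and 24.3% of the words of its transcripts also occur in transcripts of other genes. In 5 of 5 genes replicate 2 was above replicate 1 in both groups. The same order was found in members outside eIF2B, such as EIF4G1, EIF4A3, EIF1AX and EIF6, while EIF3E had the reverse order. The share of all tested genes with this order is not given here.

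Among the factors that guard start codon choice, EIF1AX, the X-linked eIF1A gene, had the highest log2 fold change, 0.60 (SE 0.17, adjusted p = 0.0953). It was at 174 and 206 CPM in Ctrl and at 244 and 331 CPM in shSTAU1, so that the groups did not overlap and the shSTAU1 libraries were far from each other. Its processed copy EIF1AXP1, which shares 5.72% of the 75-base words of EIF1AX, had 1999 and 2255 reads in Ctrl and 3293 and 4495 reads in shSTAU1. EIF1B, a second eIF1 gene, was at 15.5 and 11.2 CPM in Ctrl and at 16.9 and 21.1 CPM in shSTAU1 (log2 0.51, SE 0.23, adjusted p = 0.215). EIF1 showed overlapping groups with a log2 fold change of 0.08 (SE 0.14), and EIF1AD, a gene with an eIF1A-like domain, had -0.032 (SE 0.18).

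The 10 tested genes of eIF4F and its cofactors had a median of 0.15, and none passed the threshold. EIF4A3 and EIF4A2 held the highest values, and EIF4A1, whose count is uncertain, the lowest. EIF4A3, whose protein is the helicase of the exon junction complex rather than of eIF4F, was at 123 and 141 CPM in Ctrl and at 177 and 204 CPM in shSTAU1 (log2 0.53, SE 0.14, adjusted p = 0.0788). EIF4A2, a helicase of eIF4F with a TOP-like start, was at 213 and 232 CPM in Ctrl and at 316 and 306 CPM in shSTAU1 (log2 0.48, SE 0.12, adjusted p = 0.0737). Both genes had groups that did not overlap. The scaffold and cap-binding genes lay closer to 0. EIF4G1, the main scaffold, was at 1938 and 2175 CPM in Ctrl and at 1999 and 2383 CPM in shSTAU1 (log2 0.09, SE 0.14), and EIF4G3 had -0.034 (SE 0.13). EIF4E had 0.12 (SE 0.15) and its relative EIF4E2, which represses translation at bound caps, 0.13 (SE 0.19), and the libraries of each overlapped between groups.

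Of the proteins that hold eIF4E away from eIF4G, EIF4EBP1 was at 20.3 and 14.5 CPM in Ctrl and at 19.2 and 20.5 CPM in shSTAU1 (log2 0.19, SE 0.21). EIF4EBP2 had a log2 fold change of 0.33 (SE 0.23) from 7.70 and 8.80 CPM in Ctrl to 9.08 and 11.6 CPM in shSTAU1, and EIF4ENIF1, the eIF4E transporter, had -0.06 (SE 0.14). The adjusted p of the 3 genes lay at 0.405 and above.

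In the last group of factors, EIF6, which keeps the large subunit from joining too early, was at 27.2 and 32.9 CPM in Ctrl and at 39.7 and 45.8 CPM in shSTAU1 (log2 0.51, SE 0.17, adjusted p = 0.12). EIF5A2, a second eIF5A gene, had the lowest log2 fold change of all tested members. It was at 12.1 and 10.1 CPM in Ctrl and at 6.52 and 8.63 CPM in shSTAU1 (log2 -0.55, SE 0.24, adjusted p = 0.204). Its groups did not overlap, and it did not pass the threshold. EIF5, the GTPase activator of eIF2, had 0.025 (SE 0.15) and EIF5B 0.31 (SE 0.13).

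**Figure D3:**
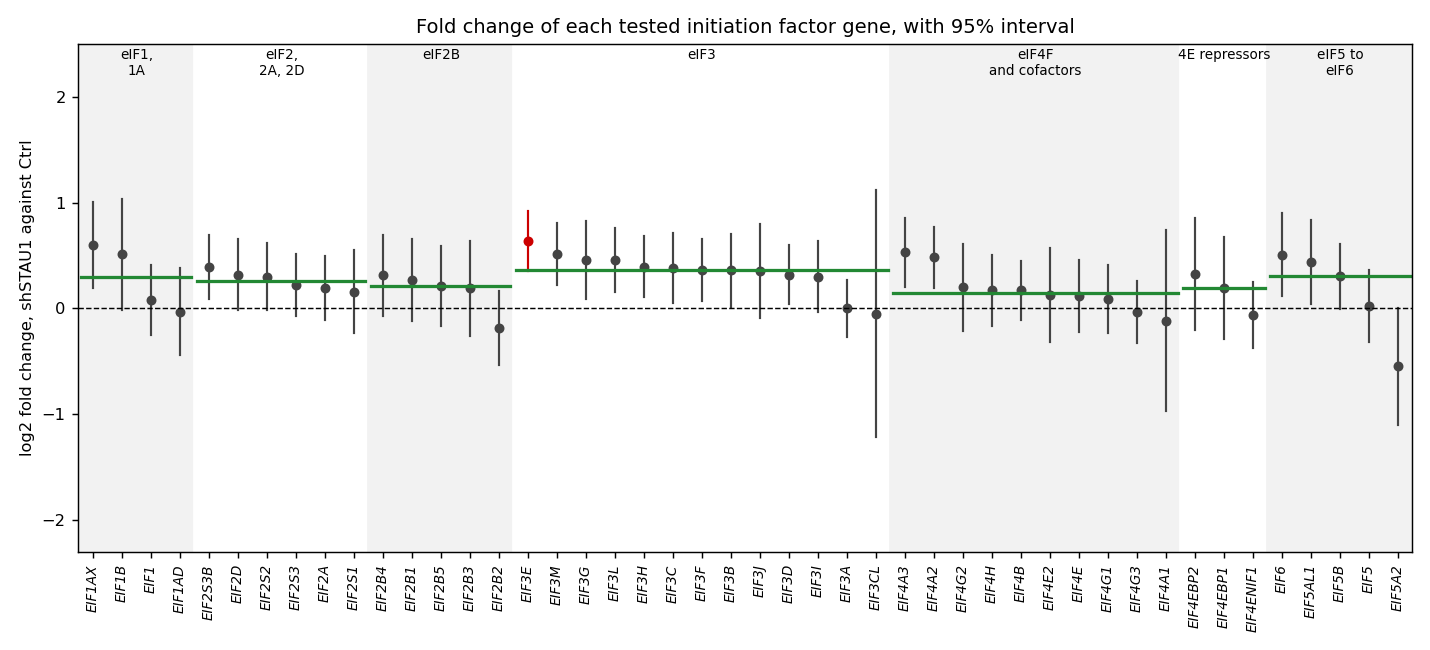
Log2 fold change of shSTAU1 against Ctrl for each tested member with its 95% interval (edgeR), sorted within factor complexes. Green lines are the medians of the complexes, from 0.15 for eIF4F to 0.36 for eIF3, the dashed line is the median of all tested genes, and EIF3E in red is the 1 gene with an adjusted p under 0.05.

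The balance between paralogs was compared as the log2 ratio of their counts within a library, with a two-sided exact permutation test that cannot go below p = 0.333 for 2 against 2 libraries. The EIF1B to EIF1 ratio was 0.168 and 0.134 in Ctrl and 0.198 and 0.211 in shSTAU1 (exact p = 0.333). It was higher in both shSTAU1 libraries. The EIF4E2 to EIF4E (exact p = 1), EIF4G3 to EIF4G1 (exact p = 0.667) and EIF4EBP2 to EIF4EBP1 (exact p = 1) ratios overlapped between groups. The EIF4A2 to EIF4A1 ratio, from 121 to 200, rests on an EIF4A1 count that is uncertain, as follows.

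EIF3K and EIF5A had almost no reads in any library, although growing cells use their products. EIF3K, an eIF3 subunit gene, is listed at 0 in all 4 libraries, and its neighbour ACTN4, which encodes an abundant actin-binding protein, had 0 to 3 reads. EIF5A, which encodes the factor that keeps ribosomes moving at difficult peptide bonds, had 4, 0, 1 and 2 reads, and all 10 of its nearest protein-coding neighbours had at most 3 reads in each library. EIF5A lies in a run of 24 other protein-coding genes of that kind on chr17:7246829-7484263 (GENCODE 29, GRCh38), while tested members had a median of 2 such neighbours of 10 and 31.7% of all protein-coding genes were of that kind. Its intronless copy EIF5AL1 had 1544 and 1651 reads in Ctrl and 1953 and 2631 reads in shSTAU1. These values are given as listed and were not read as absence of the mRNAs, and the cause was not tested.

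EIF4A1, the main eIF4F helicase gene, had 55 to 59 reads per library, while its pseudogene EIF4A1P10 had 319 to 434. Of the 75-base words of EIF4A1 transcripts, 54.3% also occur in transcripts of other genes, most of them in an overlapping gene (ENSG00000264772). EIF3C shares 80.8% of its words with other genes, chiefly EIF3CL, and the latter had 22 to 38 reads against 2052 to 3131 for EIF3C. Summed, EIF3C and EIF3CL gave a log2 fold change of 0.36 (SE 0.14), EIF1AX and its copies 0.63 (SE 0.17), EIF5A and its copies 0.38 (SE 0.17), and EIF4A1 and its copies 0.12 (SE 0.17). The last of these had been -0.12 (SE 0.37) for EIF4A1 alone, and none of the 4 sums passed the threshold. Also untested were EIF4E1B, EIF4E3 and EIF4EBP3, which had under 0.3 CPM in each library, and the Y-linked EIF1AY.

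**Figure D4:**
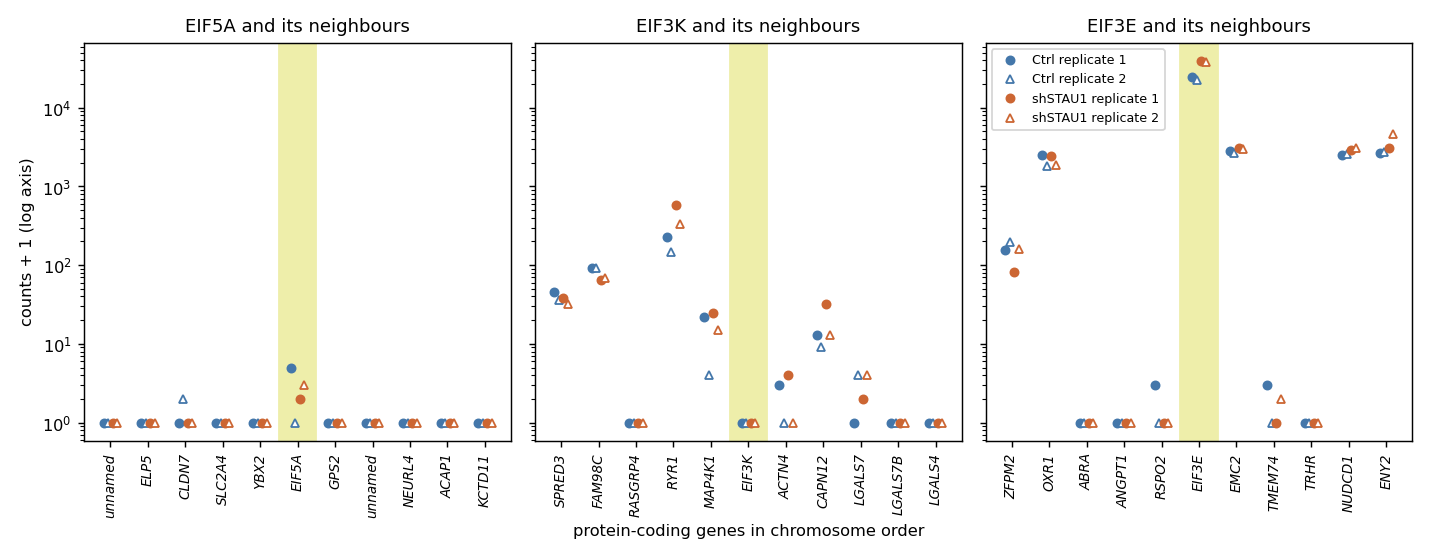
Reads plus 1 (log axis) in each library for EIF5A, EIF3K and EIF3E (shaded) and the 5 protein-coding genes on each side in chromosome order. EIF5A and all of its neighbours lie at or near 0, EIF3K lies at 0 beside ACTN4 with at most 3 reads, and EIF3E stands far above its neighbours.

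The 9 tested members with a TOP-like start had log2 fold changes from 0.17 for EIF4B to 0.51 for EIF3M, with a median of 0.32. Both shSTAU1 libraries lay above both Ctrl libraries for 9 of 9, against 28.5% of all tested genes. The 29 other tested members with an annotated start had a median of 0.20 and were apart in this way for 12. Over all tested genes with an annotated start, the median was 0.13 for 728 genes with a TOP-like start and 0.024 for the others. The search was chosen after the fold changes had been seen, and no test was made.

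Around the core factors, 45 genes that act on initiation or follow it were listed, and 39 were tested. Of these, 1 passed the threshold, against 2.60% of all tested genes. A log2 fold change above 0 was found for 28, against 50.4% of all tested genes, and the median was 0.20. MKNK2, the kinase that phosphorylates eIF4E, rose from 50.1 and 52.0 CPM in Ctrl to 86.0 and 89.9 CPM in shSTAU1 (log2 0.78, SE 0.13, edgeR adjusted p = 0.0358). The log2 fold change of MKNK2 was 0.75 without Ctrl replicate 1 and 0.82 without Ctrl replicate 2. Its edgeR adjusted p was 0.0517 after the length and GC correction. Its paralog MKNK1 had the opposite sign, at 26.1 and 31.6 CPM in Ctrl and 22.6 and 21.1 CPM in shSTAU1 (log2 -0.40, SE 0.17, adjusted p = 0.203). The other genes that did not pass the threshold in this list of eIF4 regulators ranged from -0.35 to 0.93. The latter was PDCD4, an inhibitor of eIF4A, at 61.8 and 33.7 CPM in Ctrl and 122 and 60.5 CPM in shSTAU1 (SE 0.37, edgeR adjusted p = 0.173). Its libraries overlapped between groups, and replicate 1 was above replicate 2 in each group.

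Among the 9 eIF2 kinases and phosphatase genes none passed the threshold. An unadjusted edgeR p under 0.05 was found for 4 that were higher in shSTAU1, against 12.9% of all tested genes. It was found for 1 that was lower, against 11.6%. EIF2AK1, the heme-regulated kinase, had the smallest p, with 208 and 193 CPM in Ctrl and 292 and 283 CPM in shSTAU1 (log2 0.52, SE 0.12, adjusted p = 0.0654). The catalytic phosphatase genes PPP1CA, PPP1CB and PPP1CC had log2 fold changes from 0.45 to 0.63, and the targeting subunit genes PPP1R15A and PPP1R15B had -0.21 and -0.34. Kinase and phosphatase genes thus lay on both sides of 0.

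None of the 7 genes of poly(A)-binding proteins and their partners passed the threshold. PABPC1L was at 57.3 and 60.5 CPM in Ctrl and at 42.9 and 34.4 CPM in shSTAU1 (log2 -0.61, SE 0.16, adjusted p = 0.0766), and PABPC1, the main cytoplasmic protein of the family, had 0.20 (SE 0.12). Among 7 tested elongation and termination factor genes the median was 0.33 and none passed the threshold. EEF2, the translocase, was at 730 and 675 CPM in Ctrl and at 1169 and 973 CPM in shSTAU1 (log2 0.61, SE 0.14, adjusted p = 0.0611). EEF1A1, which brings aminoacyl-tRNA to the ribosome, had 0.33 (SE 0.14). EEF1D, a subunit of the exchange factor of that protein, was at 0.773 and 1.62 CPM in Ctrl and at 0.431 and 0.368 CPM in shSTAU1. Its log2 fold change was -1.57 (SE 0.58, edgeR adjusted p = 0.15). The value rests on 26 and 53 reads in Ctrl and 15 and 13 reads in shSTAU1 and is uncertain. The smallest p of the 5 tested recycling and reinitiation genes was that of ABCE1 (log2 0.38, SE 0.16, adjusted p = 0.197), of the mitochondrial factors that of MTIF3 (0.09, SE 0.16, adjusted p = 0.775), and of the hypusination enzymes that modify eIF5A, the tested DOHH had 0.09 (SE 0.48).

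**Figure D5:**
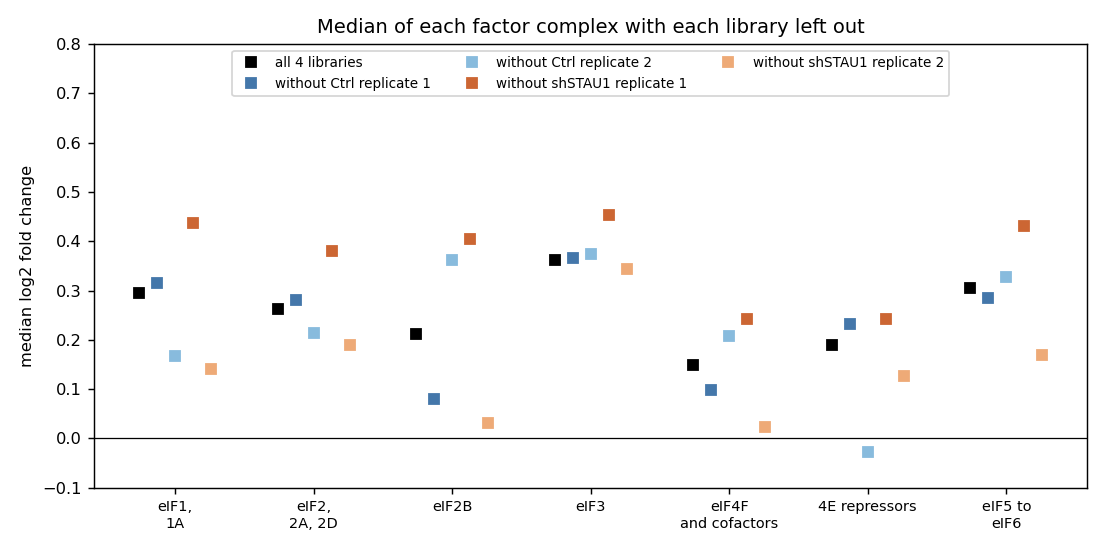
Median log2 fold change of each factor complex with all 4 libraries (black) and with each library left out. The eIF3 median stays between 0.34 and 0.45, while without shSTAU1 replicate 2 that of eIF4F goes down to 0.022 and that of eIF2B to 0.030, and that of the eIF4E-binding repressors to -0.027 without Ctrl replicate 2.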

How the data were processed

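Total RNA of 4 libraries was sequenced after exome capture (TruSeq RNA Exome). The authors deposited whole-number counts per Ensembl gene without normalization. The submitters' processing notes name hg38 and Partek; aligner, annotation release and strand setting are not given in the sources used here. No sample column was left unmapped (0). Symbols and positions came from GENCODE 29 (GRCh38), which may not be the authors' release and whose genes held 99.87% of the counts. Counts of 14303 genes that passed filterByExpr were scaled by TMM and compared in R 4.3.3 with edgeR 4.0.16 (quasi-likelihood test, Benjamini-Hochberg adjustment, threshold 0.05) across the whole table, which was tested first on simulated data. The biological coefficient of variation was 19.1%. Replicates of a group were not one library deposited again, since their counts differed beyond sampling (chi-square over degrees of freedom 23.4 for Ctrl and 56.4 for shSTAU1). Nothing says that they came from separate cultures, so p-values measure the spread between these libraries, which may be technical.

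The members and lists were chosen with earlier results of these data known. Named genes were all members past the threshold, the highest and lowest fold change of each complex, the genes of 6 paralog pairs, and the gene with the smallest p of each pathway list; others are named as chosen later or to complete a range. EIF1AY was counted and its level is not given. Shared sequence was counted as 75-base words of protein-coding transcripts found in transcripts of other genes. Alternatives were DESeq2 1.42.0, limma-voom (limma 3.58.1), library size scaling, no filter, a replicate block, other thresholds and leaving out each library. A length and GC correction and sums with copies were added after the data were seen. Sequences were taken from RefSeq.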

Additional observations from a re-analysis of the deposited data

How the results depend on the processing

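Each group had 2 libraries, and reads shared by copies limit EIF1AX, EIF3C, EIF4A1, EIF5A and EIF2S3B. Words shared with other genes also limit further members, among them EIF3L (42.5% of its words), EIF4E2 (26.4%), EIF2B2 (24.3%) and EIF4B (23.6%). The knockdown of STAU1 kept its direction under all alternatives (log2 -2.60 to -2.58 with each library left out). The number of members past the threshold, 1, was 6 with DESeq2. It was 0 with library sizes (2.82% of all genes called), without the low-count filter (0.0443%) or after a length and GC correction (2.3%). It was 6 at an adjusted p under 0.10 and 2 at a 1.5-fold change with an unadjusted p under 0.05. The shares of all genes at these last criteria are not given here, so that these counts cannot be set against them. With each library left out, the number of members past the threshold followed fits with 1 library in a group, described above with the shares of all genes. For the counts of 0, an unadjusted p under 0.05 was found for 12, 14 and 15 members with the library sizes, without the filter and with the correction, and DESeq2 called 11.7% of all genes. The number of other pathway genes, 1, was 8 with DESeq2, against 11.7% of all genes. It was 0 without the filter, against 0.0443%, and 0 after the correction, against 2.3%. At an adjusted p under 0.10 and at the fold criterion it was 8 each, with no share of all genes given here.

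A replicate block, in which libraries with the same number are paired, gave 22 members (21 higher) and 17 other pathway genes, against 28.6% of all genes. With the length and GC correction in addition it gave 19 and 17, against 25% of all genes. The labels do not say that a number marks a shared batch. Deviations of same-numbered libraries from their group means correlated at 0.361 over all tested genes and at 0.591 over genes of at least 30 CPM. With only 2 pairs, whether the numbers mark shared sets of libraries could not be settled.

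The median of the members, 0.28, lay between 0.13 and 0.38 with each library left out, and from 0.23 to 0.30 for the same genes under the other alternatives. Medians of the complexes with each library left out were 0.14 to 0.44 for eIF1 and eIF1A and 0.19 to 0.38 for the eIF2 group with EIF2A and EIF2D. They were 0.030 to 0.40 for eIF2B, 0.34 to 0.45 for eIF3 and 0.022 to 0.24 for eIF4F. For the repressors of eIF4E they were -0.027 to 0.24, and for the group of eIF5 to eIF6 0.17 to 0.43. The eIF3 median was 0.31 with library sizes, which moved the median of all genes to -0.046. After the length and GC correction the eIF3 median was 0.34 and that of the eIF5 to eIF6 group 0.36, with the block in addition they were 0.33 and 0.35, and the median of the eIF5 to eIF6 group was 0.15 with copies summed. Paralog log2 ratio differences ran from -0.16 to 0.22 for EIF4E2 to EIF4E, from -0.32 to 0.069 for EIF4G3 to EIF4G1 and from -0.22 to 0.45 for EIF4EBP2 to EIF4EBP1, and that of EIF5A2 to EIF5A could not be computed because a library is at 0. Fold changes turned sign with a library left out for 13 members, which were EIF2B3 (-0.064 to 0.40), EIF3A (-0.052 to 0.048), EIF4G2 (-0.077 to 0.43), EIF5 (-0.17 to 0.20), EIF1 (-0.049 to 0.20), EIF1AD (-0.17 to 0.098), EIF2S1 (-0.098 to 0.38), EIF3CL (-0.37 to 0.37), EIF4E (-0.035 to 0.26), EIF4E2 (-0.076 to 0.36), EIF4EBP1 (-0.027 to 0.45), EIF4G1 (-0.051 to 0.22) and EIF4G3 (-0.091 to 0.020). EIF3CL was at 0.015 with the length and GC correction and 0.052 with the replicate block added to it, and EIF4A1 was at 0.12 with copies summed. The causes of these changes were not tested.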

Other observations

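Among the pseudogenes left out of the members, EIF2S2P4 had 760 to 1250 reads per library, EIF4BP6 683 to 1181 and EIF4EP2 621 to 926. Of the 45 genes around the core factors, ABCF1, EEF1B2, EEF1G and GSPT2 are listed at 0 in all 4 libraries.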
